A study of Drosophila melanogaster with 39 samples.

Results

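Piwi-SL(Ago3) is Drosophila Piwi in which the specificity loop was replaced by that of Ago3, and the small RNAs bound to it were sequenced after expression in OSC (ovarian somatic sheath cells), a cell line from the somatic part of the fly ovary. Members were chosen by their labels: the 3 Piwi-SL(Ago3) libraries and, as their control, the 5 libraries of Piwi with its own loop (wt), together 8 of the 20 OSC libraries and of the 39 libraries in all. Both proteins carried an N-terminal FLAG-HA tag, were made from a transfected plasmid with a UASp promoter, and were immunoprecipitated through the FLAG tag. The genome of the cells was not edited, so the 2 groups differed by design in the loop of the tagged protein. The labels give no time after transfection. The comparison asks which small RNAs tagged Piwi carries when its loop comes from a relative with a different preference for the first base.

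Piwi is a nuclear PIWI-clade Argonaute that is guided by piRNAs to nascent transposon transcripts and silences them. In somatic cells of the ovary it is the main PIWI protein, and much of its piRNA supply comes from clusters such as flamenco, whose transcripts run antisense to Gypsy-type retrotransposons. Ago3 works in the germline, where it is loaded through the ping-pong cycle, mostly with sense piRNAs that lack a strong bias for a first uridine. The specificity loop lies in the MID domain, next to the pocket that anchors the first base of the guide.

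The sequences below are printed because they define the change that separates the groups. They come from the mutagenesis oligonucleotides of the study and belong to piwi (FBgn0004872), which lies on the minus strand of 2L:10982205-10987420, whereas AGO3 (FBgn0250816), which gave the loop, lies on the plus strand of 3L:23554593-23689640 (coordinates of dm6). Each oligonucleotide for Ago3 carried 18 bases ahead of its annealing part. Those of the reverse oligonucleotide are given as their reverse complement, in the reading direction of piwi, in capitals throughout. They were not compared with piwi bases, so their capitals do not mark differences. They stand directly before those of the forward oligonucleotide, which are compared with the piwi bases at the same place, read from the annealing part of another of the study's oligonucleotides. There the capitals mark the bases that differ, T7G and T10G, counted from 1 at the 5′ end, piwi base first. The other 16 of 18 bases were the same, so most of this stretch was kept.
Ago3 loop bases, from the reverse oligonucleotide: CACAATCGTAGAGACGAT
Ago3 construct, bases that follow: agatacGcaGcaatcaaa
piwi, same place: agatacTcaTcaatcaaa

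The Ago3 libraries were sequenced more deeply than all wt libraries. Raw reads numbered 15790959, 32060726 and 27353318 in Ago3 replicates 1 to 3, and 2861749 to 10745821 (median 6336981) in wt. Of mapped reads, meaning reads placed at 1 to 100 sites, 94.4% to 94.6% were 20–30 nt long in Ago3 and 92.8% to 94.5% in wt. Within the wt group, replicates 4 and 5 stood apart from replicates 1 to 3. Replicate 4 held shorter reads, and replicate 5 held longer reads and a larger unmapped part, and these were also the shallowest libraries. The labels give wt replicates 1 and 5 the same index, so the index does not tell these apart. Results are therefore also given for wt replicates 1 to 3 alone. No pair of libraries of a group was alike within counting noise. The tables hold no values per gene, so the cell line was not checked against marker genes, nor the construct against its loop. In libraries made from many cells, fewer transfected cells and less bound RNA per cell cannot be told apart.

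Piwi-SL(Ago3) bound small RNAs of the usual piRNA length, with a peak at 26 nt in all 3 libraries, followed by 27 nt and then 25 nt. Reads of 26 nt made up 26.5%, 26.9% and 26.7% of the 20–30 nt reads in Ago3 replicates 1 to 3. The wt libraries held 26.9%, 26.1%, 27.1%, 24.6% and 20.4% in replicates 1 to 5. All Ago3 libraries lay within the range of wt, close to wt replicates 1 to 3, which have the same order of the 3 most frequent lengths. In wt replicate 4 the second length was 25 nt, and in wt replicate 5 the peak was at 27 nt with 28.8% of the reads.

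**Figure D1:**
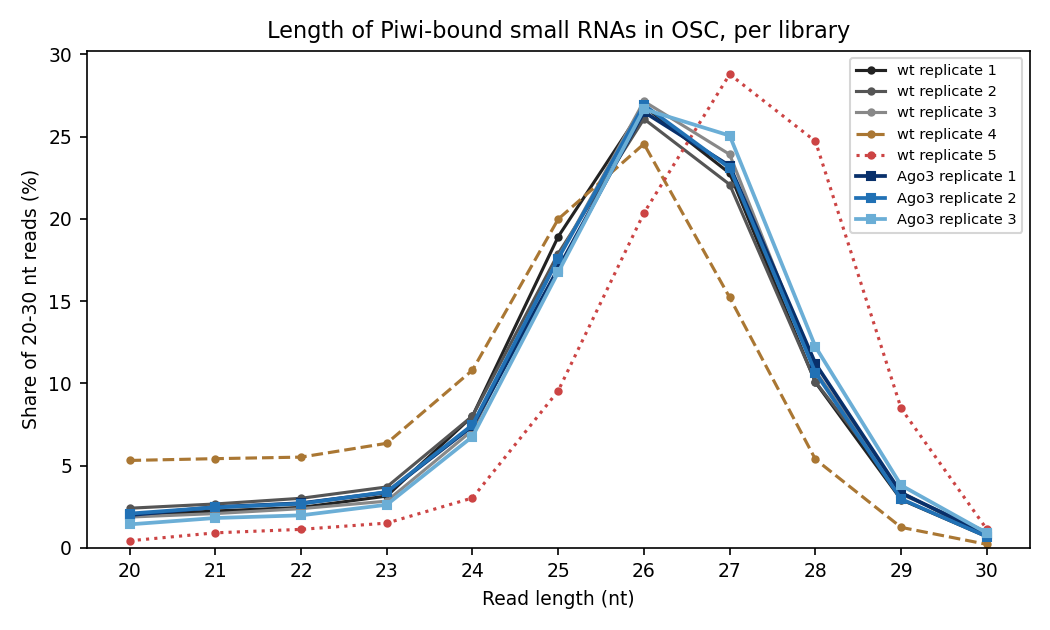
Share of each read length (20–30 nt, x axis) in the 20–30 nt reads of a library (%, y axis), 1 line per library, squares for Ago3 and circles for wt. The 3 Ago3 lines and those of wt replicates 1 to 3 peak at 26 nt, wt replicate 4 lies higher at 20–25 nt, and wt replicate 5 peaks at 27 nt.

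The flanks of the peak were also within the wt range. Reads of 27 nt made up 23.2%, 23.1% and 25.1% in Ago3 and 22.8%, 22.1%, 23.9%, 15.2% and 28.8% in wt replicates 1 to 5. Reads of 25 nt made up 17.0%, 17.6% and 16.8% in Ago3 and 18.9%, 17.9%, 17.6%, 20.0% and 9.54% in wt. Ago3 replicate 3 was thus shifted slightly to longer reads than the other 2 Ago3 libraries, which is also seen in the number of 27 nt reads per 25 nt read, at 1.37, 1.31 and 1.50 in Ago3 replicates 1 to 3. In wt this ratio was 1.20, 1.23, 1.36, 0.762 and 3.02.
At the long end, reads of 28–30 nt together held 15.4%, 14.3% and 16.9% in Ago3 and 13.7%, 14.2%, 15.0%, 6.84% and 34.3% in wt. The Ago3 values lay close to those of wt replicates 1 to 3 and between those of wt replicates 4 and 5. Reads of 30 nt, the longest class, stayed below 1% in each Ago3 library, at 0.840%, 0.685% and 0.896%.

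No share of the 11 lengths passed the test between the groups. The test was a two-sided exact permutation of the library labels over 56 assignments, with Benjamini-Hochberg adjustment over the 11 lengths (adjusted p of at least 0.943). Of the 11 lengths, 0 had an adjusted p under 0.05 (0.0%), 0 an unadjusted p under 0.05, and 0 groups that did not overlap. The smallest p that 5 libraries against 3 allow is 0.0357, so 1 length alone could not pass after adjustment over 11. The adjusted result therefore does not decide whether a single length differs. At every length all 3 Ago3 libraries lay inside the range of wt. The largest difference of means was at 26 nt, with 1.70 percentage points more in Ago3 (96.4% exact interval −0.644 to 6.57 points, unadjusted p = 0.357 in the exact permutation test). At 28 nt the interval ran from −14.1 to 6.85 points, so that shifts of several points at this length could not be detected beside the spread of the wt libraries.
Against wt replicates 1 to 3 alone, the share of 25 nt reads was lower in Ago3 by 1.04 points without overlap, while the other 10 lengths overlapped. Its exact permutation p was 0.10, the smallest that 3 libraries against 3 allow, and its adjusted p was 0.978.

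**Figure D2:**
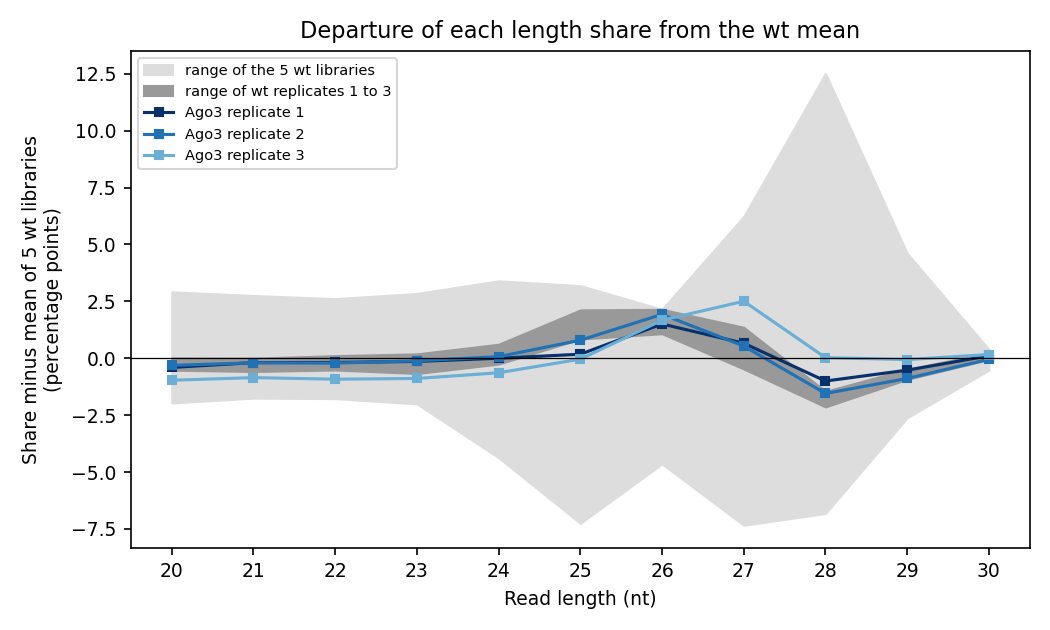
Share of each read length (x axis, nt) minus the mean of the 5 wt libraries (y axis, percentage points), 1 line per Ago3 library, with the range of the 5 wt libraries in light grey and of wt replicates 1 to 3 in dark grey. The Ago3 lines stay inside the light band at all 11 lengths, and lie just below the dark band at 25 nt.

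The mean length was 25.8, 25.8 and 26.0 nt in Ago3 replicates 1 to 3 and 25.8, 25.7, 25.9, 24.9 and 26.8 nt in wt replicates 1 to 5. Ago3 fell in the middle of the wt range, and the difference of means was 0.0680 nt (96.4% interval −0.986 to 1.12 nt, adjusted p = 0.821 over 4 summaries, exact permutation test).
Reads of 24–29 nt, the span that the study treats as piRNAs, made up 88.6%, 88.7% and 91.3% in Ago3 and 89.5%, 87.5%, 89.9%, 77.2% and 94.9% in wt. Shorter reads of 20–23 nt, the span of siRNAs and miRNAs, made up 10.5%, 10.6% and 7.83% in Ago3 and 9.79%, 11.8%, 9.17%, 22.6% and 3.97% in wt. The 2 groups overlapped in both spans, with differences of 1.72 points (interval −6.29 to 14.1) and −1.80 points (interval −14.8 to 6.65), and an adjusted p = 0.821 for each in the exact permutation test. The directions turn when wt replicate 4 is left out, to −0.931 points for 24–29 nt and 0.987 points for 20–23 nt. The authors had removed reads of structural RNAs, miRNAs among them, before mapping, so the 20–23 nt reads are what was left.
The SD of length within a library, a measure of how broad the peak is, ranged from 1.78 to 1.90 nt in Ago3 and from 1.60 to 2.15 nt in wt, with an adjusted p = 0.821 in the exact permutation test.

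Whole length profiles were compared by the distance between 2 libraries, the sum of the positive differences of their 11 shares, which is the part of the reads that would have to change length. Among the Ago3 libraries it was 1.23, 3.56 and 4.58 points. Between Ago3 and wt replicates 1 to 3 it ranged from 1.77 to 6.34 points (mean 3.22), and among wt replicates 1 to 3 from 2.49 to 3.84 points (mean 3.03). The 2 ranges overlapped. Ago3 replicates 1 and 2 lay no farther from these wt libraries than the largest distance among the latter, whereas Ago3 replicate 3 lay 5.54, 6.34 and 3.15 points from wt replicates 1 to 3, farther than that distance in 2 of 3 pairs. Distances from Ago3 to wt replicate 4 averaged 19.4 points and to wt replicate 5 23.8 points, while these 2 wt libraries lay 41.0 points from each other.
Over all 8 libraries, the mean distance between the groups was 3.97 points smaller than that within them (one-sided exact permutation test for a larger value, p = 0.768). With wt replicates 1 to 3 alone it was 0.142 points larger (exact permutation p = 0.40, where the smallest possible is 0.10).

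Reads that map to a single place in the genome were a smaller part of the mapped reads in every Piwi-SL(Ago3) library than in every wt library, a difference that did not pass the threshold once adjusted for the number of comparisons. Uniquely mapped reads made up 30.9%, 30.4% and 30.4% of the mapped reads in Ago3 replicates 1 to 3. In wt replicates 1 to 5 they made up 35.1%, 35.9%, 33.8%, 34.2% and 32.6%. The groups did not overlap, which was so in 2 of the 5 mapping comparisons (40.0%), and the 3 Ago3 libraries were closer to each other than the wt libraries were. The mean was 30.6% ± 0.322 in Ago3 (SD, n = 3) and 34.3% ± 1.26 in wt (SD, n = 5), a difference of −3.76 points (96.4% interval −5.59 to −1.70). The two-sided exact permutation test gave p = 0.0357, the lowest value possible with 5 libraries against 3. This p is for a single comparison. Adjusted over all 5 comparisons of mapping it became 0.0893, above the threshold of 0.05. As 0.0357 is the lowest p possible, 2 comparisons without overlap among 5 could not have passed after adjustment. Against wt replicates 1 to 3 the difference was −4.38 points (exact permutation p = 0.10, the smallest possible), again without overlap.
Expressed the other way, each uniquely mapped read was accompanied by 2.23, 2.29 and 2.29 multimapping reads in Ago3, and by 1.85, 1.78, 1.96, 1.93 and 2.06 in wt. Reads with many places in the genome are those from repeated sequence such as transposons, whereas unique reads allow a piRNA to be traced to a single cluster or gene.

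**Figure D3:**
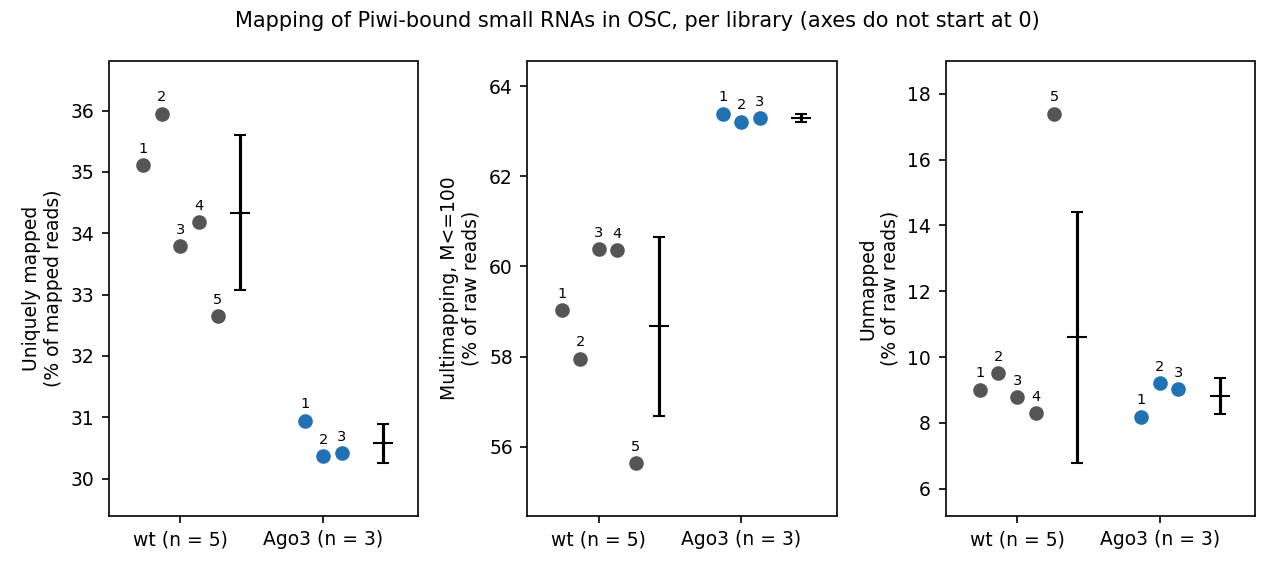
Uniquely mapped reads (% of mapped reads), multimapping reads with at most 100 places (% of raw reads) and unmapped reads (% of raw reads) on the y axes, 1 point per library with its replicate number, for wt and Ago3, beside bars for the mean and SD. The groups separate in the left and middle panels and overlap in the right one, where wt replicate 5 stands at 17.4%.

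As shares of raw reads, the 4 classes of mapping differed as follows. Multimapping reads with at most 100 places made up 63.4%, 63.2% and 63.3% of the raw reads in Ago3 and 59.0%, 57.9%, 60.4%, 60.4% and 55.6% in wt. They were higher in every Ago3 library than in every wt library, the only class of 4 in which the groups did not overlap (25.0%). The difference was 4.63 points (96.4% interval 2.83 to 7.75, p = 0.0357 in the exact permutation test, adjusted p = 0.143 over the 4 classes), and did not pass the threshold. With a single class without overlap, no adjusted p under 0.05 was possible. Against wt replicates 1 to 3 it was 4.18 points. Over all 5 mapping comparisons 0 had an adjusted p under 0.05, and the 2 without overlap use the same multimapping reads.
Uniquely mapped reads made up 28.4%, 27.6% and 27.7% of the raw reads in Ago3 and 31.9%, 32.5%, 30.8%, 31.3% and 26.96% in wt. The Ago3 values lay below wt replicates 1 to 4 and above wt replicate 5, in which many reads did not map at all. The difference of −2.84 points (interval −4.96 to 1.44) had an adjusted p = 0.286 in the exact permutation test.
Reads with more than 100 places were rare, with 4128, 8734 and 9301 reads in Ago3 and 472 to 3472 reads (median 1565) in wt. As shares of raw reads these were 0.0261%, 0.0272% and 0.0340% in Ago3 and 0.0326%, 0.0247%, 0.0214%, 0.0235% and 0.0165% in wt. The groups overlapped through wt replicate 1, with an adjusted p = 0.286 in the exact permutation test. Unmapped reads, at 8.19%, 9.21% and 9.02% in Ago3, overlapped with 9.01%, 9.51%, 8.78%, 8.28% and 17.4% in wt (adjusted p = 0.536, exact permutation test).

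Sequencing depth moved with the construct, since every Ago3 library was deeper than every wt library, and its part in the mapping shares was not tested. Over the 6 other loops with a single OSC library, which had 4641639 to 77821659 raw reads, the unique share of mapped reads ranged from 27.7% to 34.4%.
GSS, a synthetic chain that fills the place of the loop, was also sequenced in 3 OSC libraries. Its unique share was 29.2%, 29.5% and 30.6% in replicates 1 to 3, which overlapped with Ago3. The difference of Ago3 minus GSS was 0.803 points (range of the pairwise differences −0.221 to 1.76, exact permutation p = 0.30, adjusted p = 0.75 over 5 comparisons of Ago3 with GSS). Reads of 24–29 nt were higher in each Ago3 library than in the GSS libraries, which held 88.5%, 79.2% and 86.8%, at p = 0.10, the smallest the exact permutation test allows here, and an adjusted p = 0.50. The comparison with GSS was added after the values had been seen.

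Most Piwi-SL(Ago3) small RNAs came from the antisense strand of transposons, the strand that can pair with transposon transcripts. The annotation table has 1 row per construct, so no difference in it was tested, and its intervals, at 95% by the exact Clopper-Pearson method, cover counting error only. Reads antisense to transposons made up 65.5% of the annotated reads in the row labelled Ago3 replicate 1 (65.45 to 65.49%) and 60.8% in the row labelled wt replicate 1 (60.75 to 60.81%). Reads sense to transposons made up 4.59% and 4.95%. This gave 14.3 antisense reads per sense read for Ago3 and 12.3 for wt. Sense and antisense reads of transposons together held 70.1% for Ago3 and 65.7% for wt.
Reads in the sense of exons, which in OSC include piRNAs cut from the transcripts of protein-coding genes, made up 11.9% for Ago3 and 15.9% for wt, 0.749 times the wt share. Antisense exon reads held 0.773% and 0.875%, so that sense reads exceeded them 15.4 times for Ago3 and 18.1 times for wt. Introns gave 4.42% and 4.44% in sense and 2.13% and 2.55% in antisense. Reads outside all of these classes were 10.7% and 10.5%. The classes that differed most between both rows were thus antisense transposon reads, 4.69 points higher for Ago3, and sense exon reads, with a difference of −3.98 points. Sense intron reads differed by −0.0207 points.

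**Figure D4:**
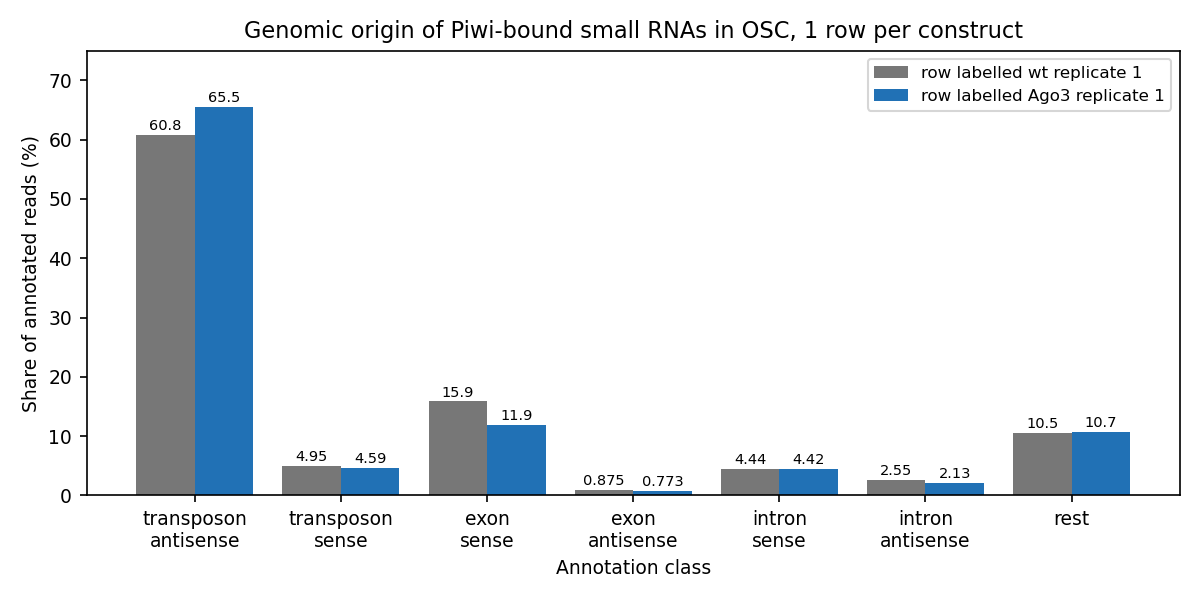
Share of the annotated reads (y axis, %) in 7 annotation classes (x axis) for the rows labelled wt replicate 1 (grey) and Ago3 replicate 1 (blue), 1 row per construct and hence no error bars. Antisense transposon reads are higher for Ago3 (65.5% against 60.8%) and sense exon reads lower (11.9% against 15.9%).

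Among the 10 OSC constructs, Ago3 had the second highest share of antisense transposon reads and wt the eighth, with 45.1% to 66.3% in the other 8. The 45.1% is the row of loop-deficient Piwi (LD), whose libraries mapped only 22.1% to 39.4% of raw reads. The next lowest of the 8 was 60.7%. LD also sets the 6.68%, 7.58%, 3.23% and 74.0% given below. For sense exon reads wt was highest and Ago3 second, above the 6.68% to 11.6% of the others. Set against transposon reads, sense exon reads came to 0.182 per antisense transposon read for Ago3 and 0.261 for wt. Ago3 was the lowest of the 10 constructs for intron reads, both in sense, where the others apart from wt held 4.75% to 7.58%, and in antisense, where they held 2.28% to 3.23%. Of the reads inside transposons, exons and introns, 76.6% were antisense for Ago3 and 71.8% for wt. In the other constructs this share ranged from 74.0% to 78.8%, so that wt was below all of them and Ago3 among them.
The totals of both rows bear on these values. The row labelled Ago3 replicate 1 sums to 28981364 reads, 200% of the mapped reads of that library, 99.6% of those of replicate 2 and 117% of those of replicate 3. The row labelled wt replicate 1 sums to 9716686 reads, 100.3% of the mapped reads of that library and 99.2% of those of replicate 3. Both totals exceed the mapped reads of the library in their label, so neither row can hold reads of that library alone, each counted once. Within their groups, only Ago3 replicate 2 and wt replicate 3 mapped more reads than the row holds, and neither matches its total exactly. The library behind each row is therefore not identified with certainty. Neither row is limited to 24–29 nt, since both totals exceed the 24–29 nt reads of every library of their group. Totals of other rows also departed from the mapped reads of the labelled library, at 307% for LD, 148% for hAgo2wt and 67.5% for hAgo2PT. The hAgo2wt total, 26743393, equals the mapped reads of the hAgo2PT library, and the hAgo2PT total, 18059883, those of hAgo2wt, so these labels are exchanged between the 2 sources. The LD total, 2736859, equals the mapped reads of LD replicate 2, whereas its label names replicate 1.

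In ovaries, the same 2 proteins were immunoprecipitated in 1 library each, from piwi null flies rescued by the tagged protein. The genome of the OSC was not edited, so the piwi genotype also differed between cells and flies. Antisense transposon reads of ovaries stood at 47.0% for Ago3 and 54.3% for wt, lower for Ago3 where they were higher in OSC. Sense transposon reads were 24.6% and 11.9%, which is 2.06 times the wt share, whereas in OSC Ago3 had 0.927 times the wt share. Sense exon reads were lower for Ago3 in both, at 4.30% against 6.26% in ovaries, 0.687 times the wt share. The unique share of mapped reads was likewise lower in the Ago3 ovary library, at 24.2% against 29.8%. GSS and LD, with 1 ovary library each, also stood above wt in sense transposon reads, at 21.3% and 28.9%. Their sense exon reads, at 4.25% and 2.08%, and unique shares, at 23.6% and 24.4%, also lay below wt. Their antisense transposon reads, at 54.6% and 58.8%, did not. By the paper, LD came from piwi heterozygous flies. Ovaries hold germline cells, with their own dual-strand clusters and ping-pong cycle, beside the somatic cells, and none of these differences was tested.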

How the data were processed

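Counts of small RNA reads were deposited by the authors, who, by the methods and the submitters' processing notes, removed adapters with cutadapt, removed structural RNAs and mapped the rest to dm6 with STAR. The mapping table holds counts of raw, unique (M = 1) and multimapping reads (M at most 100, and above 100) beside the authors' percentages, which were not used. Whether structural RNA reads count among the raw or unmapped reads is not given in the sources used here. The length table holds counts of reads of 20 to 30 nt, and the annotation table counts in 7 classes. 0 columns stayed unmatched to a sample.

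Counts were turned into shares per library, so that the library is the replicate. Groups were compared by exact permutation of library labels (56 assignments, threshold 0.05), with Benjamini-Hochberg adjustment over 11 lengths, 4 mapping classes or 4 length summaries. Intervals of 96.4% run over the shifts that this test does not reject, from the lowest Ago3 minus the highest wt library to the reverse. The paper describes 3 biological replicates of these constructs in OSC, whereas the series holds 5 wt libraries. The labels number replicates without naming separate transfections, so p-values measure the spread between these libraries, part of which may be technical. PCR copies are not separate molecules, so counting intervals cover counting error only. The members and comparisons were chosen with earlier results of these data known. All lengths, mapping classes and annotation classes are reported, with no choice among them. No gene list applies, since these tables hold no genes. Shares of 24–29 nt only, the adjustment over 5 mapping comparisons and the comparison with GSS were added after values had been seen. Tests were tried on simulated data. Software was scipy 1.17.1, pandas 2.3.3 and numpy 2.4.6 under Python 3.11.15, and matplotlib 3.10.9 for figures.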

Additional observations from a re-analysis of the deposited data

Results flagged for a closer look

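Wt replicate 5 stood far from the other 4 wt libraries in 4 measures: 82.6% of its raw reads mapped and 17.4% did not, 9.54% of its 20–30 nt reads were 25 nt long and 24.7% were 28 nt long. The mapped and unmapped shares come from the same counts, and the length shares are parts of 1 profile, so the 4 are not independent. Dixon's test was applied to 23 measures of the 5 wt libraries, which overlap in the same way, and chance alone picks about 1 group in 20. In this library the 3 most frequent lengths were, in order, 27, 28 and 26 nt. Libraries labelled Aub, PiwiP4, hAgo2PT, hAgo2wt and GSS replicate 3 had the same order, with 15.9% to 26.2% of raw reads unmapped. The remaining OSC libraries had other orders, among them the LD libraries, with 60.6% to 77.9% unmapped. A common source of length and unmapped reads was not tested.

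For transposon reads, the difference between Ago3 and wt in the annotation took opposite directions in OSC and ovaries. For antisense transposon reads it was 4.69 points in OSC and −7.36 points in ovaries, and for sense transposon reads −0.360 points in OSC and 12.7 points in ovaries. Sense transposon reads of ovaries were above the 11.9% of wt for GSS and LD too, at 21.3% and 28.9%. With 1 row per construct and tissue, the difference was not tested.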

How the results depend on the processing

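Of 154 alternative values, 122 were classed as unchanged, which for tested differences means the same direction and side of the threshold. Much of this was fixed in advance. With 1 library left out, with wt replicates 1 to 3 alone, or with labels permuted within replicate numbers, the smallest possible p lay between 0.0571 and 0.25. A result above the threshold could not cross it there, so the count does not measure how firm the results are. The unique share of mapped reads kept its direction in all alternatives, from −4.18 to −3.36 points without 1 library at a time, but its p, 0.0357 with all libraries, rose to between 0.0571 and 0.0952, the smallest values that 7 libraries allow. It was −4.38 points with wt replicates 1 to 3 (p = 0.10, exact permutation test), and −3.77 points as a difference of medians (p = 0.107, exact permutation test). Adjusted over 5 mapping comparisons its p was 0.0893 at −3.76 points. The multimapping share stayed between 3.87 and 5.06 points without 1 library at a time.

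With replicates 1 to 3 of both groups permuted within replicate numbers (replicate block), the unique share of mapped reads differed by −4.38 points (exact permutation p = 0.25, the least this block allows) and the distance between profiles turned to 0.142 points, as it did with wt replicates 1 to 3. Deviations of same-numbered libraries correlated at −0.0640, 0.464 and 0.888, and not every library correlated best with its own number. With so few libraries, these values do not decide whether same-numbered libraries were prepared together.

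Several small differences changed direction. Without 1 library at a time, the difference ranged from −0.160 to 0.309 nt for mean length, from −0.0892 to 0.0497 nt for the SD of length, from −0.931 to 3.50 points for 24–29 nt and from −3.67 to 0.987 points for 20–23 nt. As differences of medians, unmapped reads came to 0.0131 points, the SD of length to 0.0433 nt, 24–29 nt reads to −0.842 points and 20–23 nt reads to 0.754 points. The SD of length was 0.00117 nt higher over 22–30 nt and 0.0125 nt over 24–29 nt, where the mean differed by −0.00657 nt. Without reads outside all classes, annotation differences were 5.40 points (antisense transposon), −0.391 (sense transposon), −4.42 (sense exon), −0.113 (antisense exon) and −0.462 (antisense intron). No alternative gave a length that passed the test. With 1 library left out, or wt replicates 1 to 3 alone, the smallest possible p exceeds 0.05, so no length could pass there. The small number of libraries and the distance between wt replicates 4 and 5, also the shallowest, limit the length comparisons, and the part of depth in that distance was not tested.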
